A study of Mus musculus with 4 samples.

Results

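The cadherins and the factors of the epithelial-mesenchymal transition (EMT) were followed as 10 genes, chosen by name and matched from Ensembl identifiers to mouse symbols, out of the 37620 genes with raw counts. They are the cadherins Cdh1, Cdh2 and Cdh11, the adhesion molecule Epcam, the intermediate filament gene Vim and the transcription factors Snai1, Snai2, Zeb1, Zeb2 and Twist1. The genes were chosen with earlier results of these data known. All 10 were found, and 9 of them were among the 15462 genes that passed the authors' filter on low counts. The exception, Zeb1, was listed at 0 counts in every library. The 4 libraries come from R1 mouse ESCs of strain 129/Sv, either WT or Cripto KO. Cells were kept in serum/LIF or, to model the ESC→EpiSC transition, were plated sparsely in N2B27 medium with Activin A (20 ng per ml) and bFGF, called F/A, and sampled at day 6. Each combination of genotype and culture is 1 library of total RNA, and without replicates no difference could be tested. The study worked with more than 1 Cripto KO clone, and which of them was sequenced is not stated. The dose of bFGF is not given in the labels.

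E-cadherin, encoded by Cdh1, holds epithelial cells together by binding the same protein on the neighbouring cell, and its cytoplasmic tail is linked to actin through catenins. During gastrulation, cells leaving the epiblast through the primitive streak lose E-cadherin and gain N-cadherin, encoded by Cdh2. Snail, Zeb and Twist proteins bind E-box elements of DNA, and the Snail and Zeb proteins are best known as repressors of Cdh1. Epcam is a surface protein of epithelial and pluripotent cells, whereas vimentin, encoded by Vim, forms the filaments typical of mesenchymal cells.

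Promoter sequences from RefSeq (build GRCm38.p6) were used for 5 of the 10 genes, namely Epcam, Vim, Snai1, Zeb2 and Twist1, and none for Cdh1, Cdh2, Cdh11, Snai2 and Zeb1. The 250 bases before the start site were searched on both strands for the E-box CACCTG, whose reverse complement is CAGGTG, and for the general E-box CANNTG, of which CACCTG is a case. The windows of Epcam (chr17:87635729-87635978, plus strand) and Snai1 (chr2:167537945-167538194, plus strand) are printed because they hold the element, in capitals. Those of Vim (chr2:13574061-13574310, plus strand) and Twist1 (chr12:33957421-33957670, plus strand) are printed as examples of windows that hold none. Snai1, Vim, Zeb2 and Twist1 were all higher in F/A in both genotypes, with or without the element. All windows are written 5′ to 3′.
Epcam: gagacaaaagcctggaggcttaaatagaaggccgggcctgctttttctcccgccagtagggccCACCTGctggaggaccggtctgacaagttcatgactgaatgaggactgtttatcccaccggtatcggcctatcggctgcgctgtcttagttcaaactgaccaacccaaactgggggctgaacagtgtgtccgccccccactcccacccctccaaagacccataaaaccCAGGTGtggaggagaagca
Snai1: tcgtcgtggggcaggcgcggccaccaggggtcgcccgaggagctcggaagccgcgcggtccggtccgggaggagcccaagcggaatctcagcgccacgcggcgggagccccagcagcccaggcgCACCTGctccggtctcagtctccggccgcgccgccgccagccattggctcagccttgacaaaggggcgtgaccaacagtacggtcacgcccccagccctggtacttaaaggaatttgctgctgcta
Vim: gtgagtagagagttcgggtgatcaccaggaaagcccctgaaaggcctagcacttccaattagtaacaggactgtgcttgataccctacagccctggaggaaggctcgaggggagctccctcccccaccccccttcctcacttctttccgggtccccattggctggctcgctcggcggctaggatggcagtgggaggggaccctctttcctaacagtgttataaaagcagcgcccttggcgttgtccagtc
Twist1: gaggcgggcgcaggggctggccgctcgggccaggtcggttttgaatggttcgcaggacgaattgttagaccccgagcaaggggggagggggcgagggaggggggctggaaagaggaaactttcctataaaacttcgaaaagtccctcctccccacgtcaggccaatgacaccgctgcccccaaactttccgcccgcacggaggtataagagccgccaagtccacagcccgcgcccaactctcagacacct
The first base of the element lies 187 and 19 bases before the start of Epcam and 126 bases before the start of Snai1. No match was found for either element in the windows of Vim and Twist1, or in those of the annotated starts of Zeb2. Of the 32851 mouse promoters of the same length, 17.2% held CACCTG or CAGGTG and 66.2% held CANNTG. A match describes these letters and says nothing about binding.

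The raw counts of the libraries summed to between 15230856 and 17315442. In Cripto KO F/A nearly all counts were even, with an odd count for 3 genes (0.0160% of those with a count, against 53.1% to 53.6% in the other libraries), and its counts were halved wherever an interval was computed. The knocked-out gene Tdgf1, which encodes Cripto, had 18714 raw counts in WT serum/LIF, 1572 in WT F/A, 945 in Cripto KO serum/LIF and 86 in Cripto KO F/A, so it was lowest in each culture in the library labelled Cripto KO. Of the 8 markers of naive ESCs, 7 were matched to a symbol and 6 passed the filter. All 6 were at least 2-fold lower in F/A in each genotype, led in WT cells by Nr0b1 and Esrrb. Over all genes that passed the filter, 20.9% were lower in WT and 19.4% in Cripto KO cells. Esrrb fell from 15699 to 13 raw counts in WT cells and Nr0b1 from 4045 to 0, which is at least 1186-fold against the detection limit of 3 counts (6 in Cripto KO F/A). Fgf5, a marker of primed EpiSCs, had 3 raw counts in WT serum/LIF and 2206 in WT F/A, a fold of at least 836, and was 5.83-fold lower in Cripto KO F/A than in WT F/A.

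Normalized values below are the authors' quantile-normalized values, in which all libraries share 1 distribution, and folds and log2 ratios are taken from them unless stated. The interval beside a fold is a 95% Clopper-Pearson interval of the ratio of raw counts scaled by library totals. It covers counting error only, not the spread between cultures, and the fold by normalized values can lie outside it because the scaling differs. A gene was counted as higher or lower at a fold of at least 2. In bulk RNA, fewer cells with a transcript cannot be told apart from less of it per cell.

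**Figure D1:**
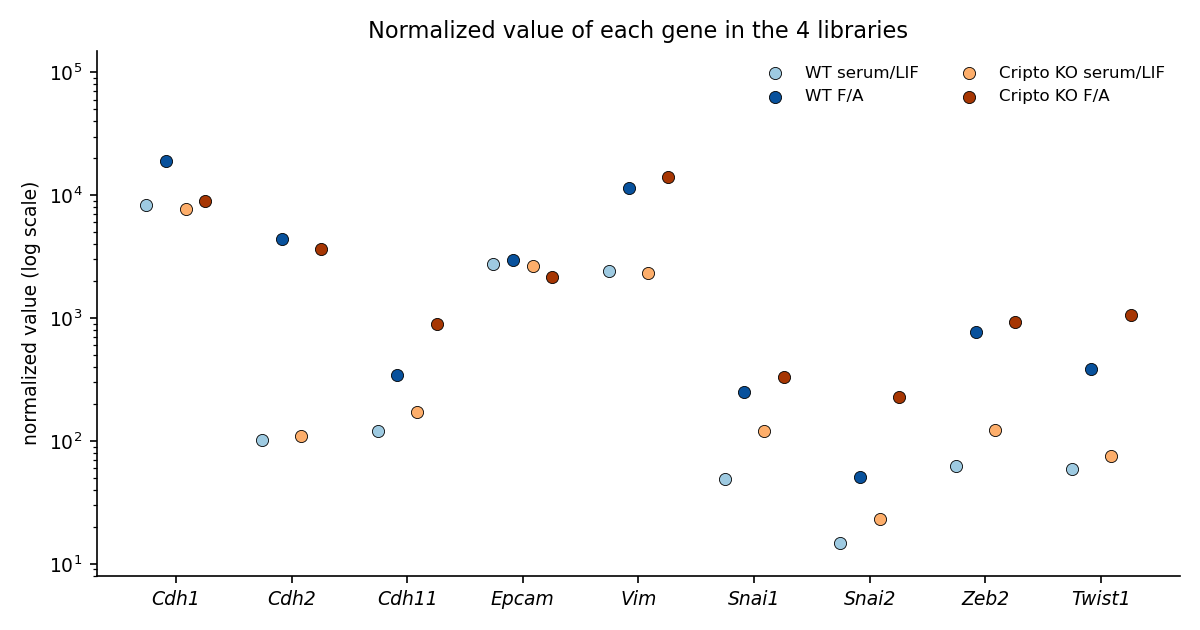
Normalized value (vertical axis, log scale) of the 9 genes that passed the filter, with 1 point for each of the 4 libraries. Vim and Cdh2 form a serum/LIF pair and an F/A pair, Epcam stays between 2172 and 2981, and the WT F/A point of Cdh1 (19064) stands above its other 3.

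In the WT transition, 8 of the 9 measured genes were at least 2-fold higher in F/A and 0 were lower, where 22.1% of all 15462 genes were higher and 20.9% lower. The median log2 ratio of the 9 was 2.25, against −0.07 for all genes. In the Cripto KO transition 7 were higher and 0 lower, where 19.9% of all genes were higher and 19.4% lower, with a median of 2.61 against −0.07. Both the epithelial cadherin Cdh1 and the mesenchymal genes therefore belonged to the higher group in WT cells, and the genes outside it were Epcam in WT cells and Epcam with Cdh1 in Cripto KO cells. Between the genotypes in F/A, Cdh11, Snai2 and Twist1 were at least 2-fold higher in Cripto KO and Cdh1 was at least 2-fold lower, where 4.59% of all genes were higher and 5.69% lower. In serum/LIF only Snai1 of the 9 passed the limit, being higher in Cripto KO, and 0 were lower, where 2.86% of all genes were higher and 2.75% lower. The 4 comparisons share libraries and are not independent of each other. Because the genes were chosen with earlier results of these data known, the shares over all genes are a description and not a test.

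**Figure D2:**
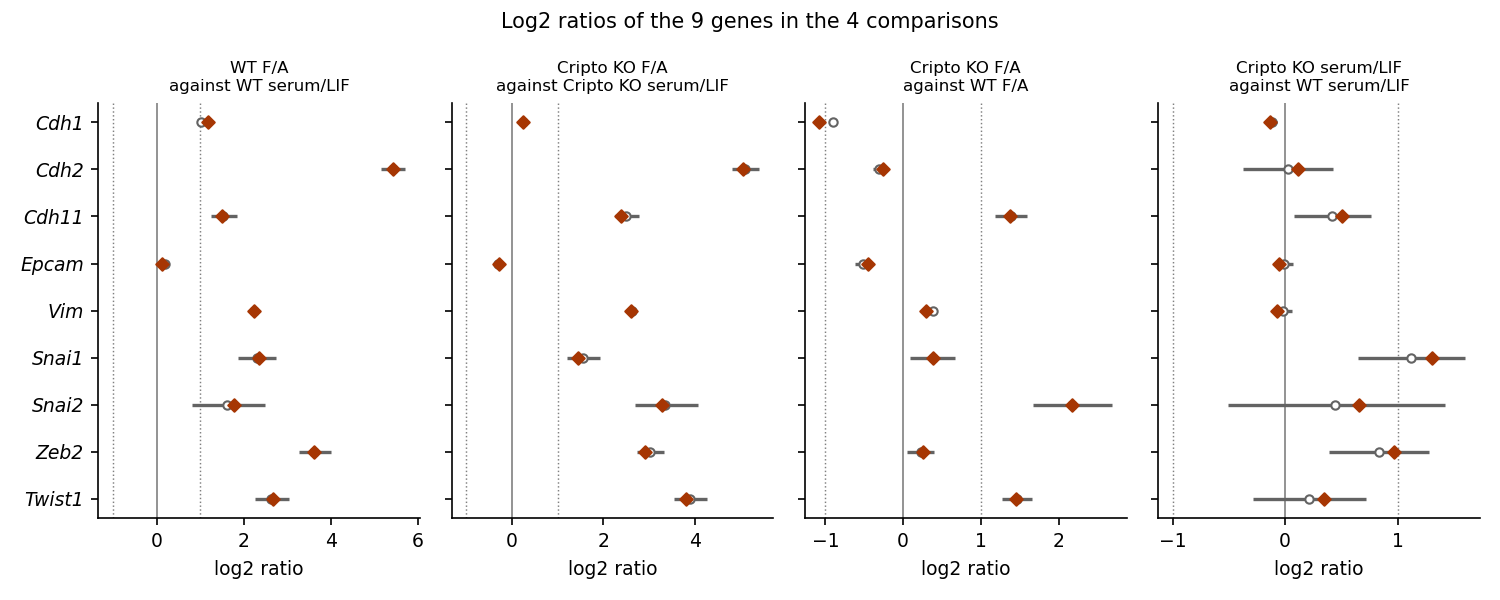
Log2 ratio (horizontal axis) of the 9 genes in the 4 comparisons. Diamonds are ratios of normalized values, open circles are ratios of raw counts scaled by library totals with their 95% counting interval as a bar, and dotted lines mark a fold of 2. Cdh2 is farthest to the right in both transitions (5.44 in WT and 5.06 in Cripto KO), and the diamond of Cdh1 lies past the lower line in Cripto KO F/A against WT F/A (−1.08) while its circle does not (−0.90).

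Cdh1 (ENSMUSG00000000303, chromosome 8 of mm9 from 109127251 to 109194146, plus strand) had normalized values of 8403 in WT serum/LIF, 19064 in WT F/A, 7674 in Cripto KO serum/LIF and 9041 in Cripto KO F/A. The WT F/A library was high and the other 3 lay close to each other. The ratio of F/A to serum/LIF was 2.27 in WT cells (2.05 by library totals, interval 1.995 to 2.101) and 1.18 in Cripto KO cells (interval 1.14 to 1.23). In F/A the Cripto KO level was 2.11-fold lower than the WT level, whereas the ratio by library totals was 0.535 (interval 0.517 to 0.553), which does not reach a fold of 2. With TMM factors the log2 ratio was −0.87 and with DESeq2 size factors −0.88, so the direction was the same under each scaling but the 2-fold limit was not reached with library totals, TMM factors or size factors. In serum/LIF the ratio of Cripto KO to WT was 0.913 (interval 0.895 to 0.951).

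Cdh2, N-cadherin (ENSMUSG00000024304, chromosome 18 of mm9 from 16747386 to 16967755, minus strand), had normalized values of 101.8 in WT serum/LIF, 4406 in WT F/A, 110.0 in Cripto KO serum/LIF and 3674 in Cripto KO F/A. Both F/A libraries were high and both serum/LIF libraries low. The rise was 43.3-fold in WT (interval 35.9 to 52.8) and 33.4-fold in Cripto KO (28.2 to 42.2), and only 311 of the 15462 genes had a higher log2 ratio in WT. The genotypes were close in F/A, at a Cripto KO to WT ratio of 0.834 (interval 0.761 to 0.852), and in serum/LIF the interval of their ratio, 0.772 to 1.34, held 1.

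Cdh11, a cadherin of mesenchyme and bone-forming cells (ENSMUSG00000031673, chromosome 8 of mm9 from 105156895 to 105309011, minus strand), had normalized values of 120.5 in WT serum/LIF, 344.3 in WT F/A, 171.5 in Cripto KO serum/LIF and 892.8 in Cripto KO F/A. It was highest in Cripto KO F/A. The rise in F/A was 2.86-fold in WT (interval 2.36 to 3.58) and 5.21-fold in Cripto KO (4.74 to 6.84). In F/A Cripto KO was 2.59-fold higher than WT (2.26 to 3.02).

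Within a library the ratio of 2 genes does not depend on how libraries are scaled. There were 0.0124 raw counts of Cdh2 per count of Cdh1 in WT serum/LIF (interval 0.0102 to 0.0149) and 0.0136 in Cripto KO serum/LIF (0.0111 to 0.0165), and these intervals overlap. In F/A there were 0.262 in WT (0.253 to 0.271) and 0.394 in Cripto KO (0.373 to 0.416), whose intervals do not overlap. Cdh1 thus remained the more abundant of the pair in all 4 libraries. Per kilobase of the longest annotated transcript (4430 bases for Cdh1, 4843 for Cdh2), the F/A ratios were 0.239 in WT and 0.360 in Cripto KO. The ratio of Cdh11 to Cdh1 was between 0.0145 and 0.0209 in both serum/LIF libraries and WT F/A, and 0.100 in Cripto KO F/A (0.0907 to 0.110).

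Levels of different genes were compared as RPKM, the raw count divided by transcript length and by library total. Over the 23 classical and related cadherins listed, the 3 above and 20 others, the summed RPKM was 133 in WT serum/LIF, 338 in WT F/A, 124 in Cripto KO serum/LIF and 215 in Cripto KO F/A. Cdh1 made up 87.8% of this sum in WT serum/LIF and 87.2% in Cripto KO serum/LIF, 70.9% in WT F/A and 59.7% in Cripto KO F/A. Cdh2 went from 0.993% and 1.09% in serum/LIF to 16.98% in WT F/A and 21.5% in Cripto KO F/A, and from rank 6 and rank 5 to rank 2. Cdh11 held 6.29% in Cripto KO F/A, where it ranked above Cdh3 (5.52%), the P-cadherin gene, which ranked above it in the other 3 libraries.

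**Figure D3:**
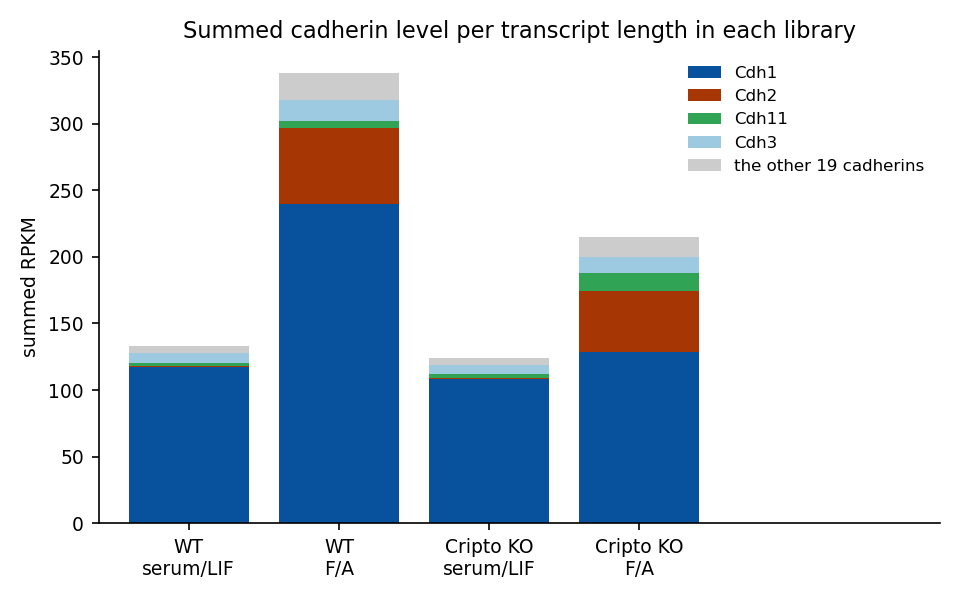
Summed RPKM (vertical axis) of 23 cadherin genes in each library, stacked by gene. Cdh1 forms the largest block of each bar, and Cdh2 is a visible block in both F/A bars (57.4 in WT and 46.2 in Cripto KO).

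Epcam (ENSMUSG00000045394, chromosome 17 of mm9 from 88035319 to 88050446, plus strand) had normalized values of 2746 in WT serum/LIF, 2981 in WT F/A, 2636 in Cripto KO serum/LIF and 2172 in Cripto KO F/A. Its highest value was closer in fold to its lowest than that of the other 8 genes, and it was lowest in Cripto KO F/A. The ratio of F/A to serum/LIF was 1.09 in WT (1.15 by library totals, interval 1.09 to 1.21) and 0.824 in Cripto KO (interval 0.752 to 0.869). In F/A the ratio of Cripto KO to WT was 0.728 (0.651 to 0.751). In serum/LIF the interval, 0.944 to 1.05, held 1.

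Vim (ENSMUSG00000026728, chromosome 2 of mm9 from 13495554 to 13504453, plus strand) had normalized values of 2426 in WT serum/LIF, 11504 in WT F/A, 2310 in Cripto KO serum/LIF and 14087 in Cripto KO F/A. Both F/A libraries stood well above both serum/LIF libraries. The rise was 4.74-fold in WT (interval 4.49 to 4.90) and 6.10-fold in Cripto KO (5.90 to 6.49). In F/A Cripto KO was 1.22-fold higher than WT (1.30-fold by library totals, interval 1.26 to 1.34), and in serum/LIF the interval, 0.931 to 1.04, held 1. By RPKM, Vim ranked 132 of 37205 genes in WT F/A and 125 in Cripto KO F/A, against ranks of 1106 and 1129 in serum/LIF. Per count of Epcam there were 0.880 raw counts of Vim in WT serum/LIF (interval 0.834 to 0.929) and 0.871 in Cripto KO serum/LIF (0.824 to 0.922), but 3.58 in WT F/A (3.44 to 3.74) and 6.67 in Cripto KO F/A (6.25 to 7.12).

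Snai1, which encodes Snail (ENSMUSG00000042821, chromosome 2 of mm9 from 167363695 to 167368314, plus strand), had normalized values of 49.0 in WT serum/LIF, 252.5 in WT F/A, 121.3 in Cripto KO serum/LIF and 330.0 in Cripto KO F/A. Both F/A libraries were above both serum/LIF libraries, and WT serum/LIF was the lowest. Its rise in F/A was 5.15-fold in WT (interval 3.68 to 6.69) and 2.72-fold in Cripto KO (2.32 to 3.78). In serum/LIF Cripto KO was 2.47-fold higher than WT (1.57 to 3.03), from 116 against 57 raw counts. In F/A it was 1.31-fold higher than WT (1.06 to 1.59).

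Snai2, which encodes Slug (ENSMUSG00000022676, chromosome 16 of mm9 from 14705945 to 14709488, plus strand), had the lowest counts of the 9, with 18 raw counts in WT serum/LIF, 49 in WT F/A, 23 in Cripto KO serum/LIF and 228 in Cripto KO F/A. The Cripto KO F/A library stood apart from the other 3. The rise in F/A was 3.44-fold in WT (interval 1.77 to 5.64) and 9.80-fold in Cripto KO (6.50 to 16.8). In F/A Cripto KO was 4.49-fold higher than WT (3.19 to 6.43), and only 174 of the 15462 genes had a higher log2 ratio in that comparison.

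Zeb2 (ENSMUSG00000026872, chromosome 2 of mm9 from 44839154 to 44972915, minus strand) had normalized values of 62.5 in WT serum/LIF, 773.8 in WT F/A, 122.4 in Cripto KO serum/LIF and 921.5 in Cripto KO F/A. Both F/A libraries were high. The rise was 12.4-fold in WT (interval 9.68 to 16.04) and 7.53-fold in Cripto KO (6.62 to 10.04). With the trend over transcript length removed, its log2 ratio in the WT transition went from 3.63 to 2.91 and the difference of the transitions from −0.72 to −0.20. Cripto KO was 1.96-fold higher than WT in serum/LIF (1.31 to 2.43), just under the limit, and 1.19-fold in F/A (1.04 to 1.31). Without the length trend the log2 ratio of Cripto KO to WT in F/A went from 0.25 to 0.69, and that in serum/LIF from 0.97 to 0.87. The antisense lincRNA Gm13476 overlaps Zeb2 and had 37 raw counts in WT F/A and 64 in Cripto KO F/A. Whether counting used the strand is not stated, so reads of this pair may not be fully separated.

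Twist1 (ENSMUSG00000035799, chromosome 12 of mm9 from 34642536 to 34644682, plus strand) had normalized values of 59.5 in WT serum/LIF, 383.3 in WT F/A, 75.5 in Cripto KO serum/LIF and 1052 in Cripto KO F/A. It was highest in Cripto KO F/A, with WT F/A between that library and both serum/LIF libraries. The rise in F/A was 6.44-fold in WT (interval 4.80 to 8.23) and 13.9-fold in Cripto KO (11.6 to 19.3). In F/A Cripto KO was 2.75-fold higher than WT (2.41 to 3.16). In serum/LIF the interval of the ratio, 0.821 to 1.64, held 1.

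Zeb1 (ENSMUSG00000024238, chromosome 18 of mm9 from 5591858 to 5775465, plus strand) was listed at 0 in all 4 libraries and gives no ratio. So were 4069 of the 22337 protein-coding gene identifiers (18.2%). For Zeb1 a count of 0 allows a level of up to 0.173 cpm in WT serum/LIF, 0.197 in WT F/A, 0.184 in Cripto KO serum/LIF and 0.381 in Cripto KO F/A, which covers counting error only. Zeb1 overlaps the gene Gm10125 on the other strand, with 5 raw counts in WT serum/LIF and 3 in Cripto KO serum/LIF, as well as a pseudogene and a miRNA gene listed at 0. Reads that fall on overlapping genes can be assigned to none of them, so the 0 is given as listed and not as absence of the transcript.

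Per transcript length, Twist1 led the 4 detected factors in WT serum/LIF (RPKM 2.39), WT F/A (15.0) and Cripto KO F/A (41.3), while Snai1 led in Cripto KO serum/LIF (4.40, against 2.78 for Twist1). Twist1 made up 60.9% of the summed RPKM of these factors in Cripto KO F/A and 46.7% in WT F/A. Summed over the factors, RPKM was 5.38 in WT serum/LIF, 32.0 in WT F/A, 8.66 in Cripto KO serum/LIF and 67.8 in Cripto KO F/A. The most abundant factor was below Vim (405) and Cdh1 (128) in Cripto KO F/A.

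**Figure D4:**
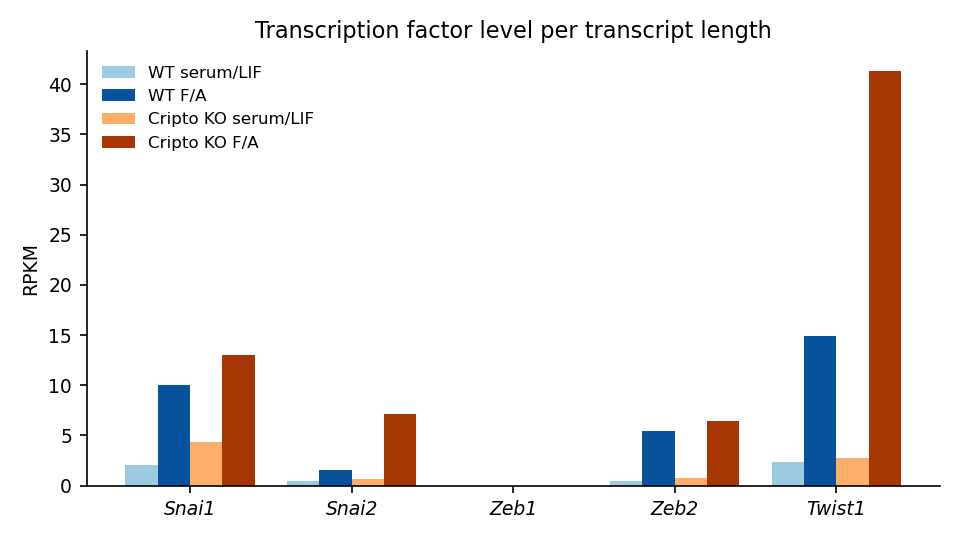
RPKM (vertical axis) of the 5 transcription factors in each of the 4 libraries. The Twist1 bar of Cripto KO F/A (41.3) is the tallest, and Zeb1 has no bar because it was listed at 0.

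Set side by side, the log2 change in Cripto KO minus that in WT was at least 1 for Snai2 (1.51) and Twist1 (1.11), and for none of the 9 was it −1 or lower. Over all 15462 genes this difference was at least 1 upward for 7.69% and at least 1 downward for 9.38%. It was 0.87 for Cdh11, 0.36 for Vim, −0.37 for Cdh2, −0.40 for Epcam, −0.72 for Zeb2, −0.92 for Snai1 and −0.95 for Cdh1. For Snai1 and Zeb2 the genotypes differed more in serum/LIF than in F/A (log2 ratios of Cripto KO to WT of 1.31 and 0.97 against 0.39 and 0.25). For Zeb2 the gap was narrower without the trend over transcript length (0.87 against 0.69). For Cdh1 the genotypes differed more in F/A than in serum/LIF (−1.08 against −0.13). Without replicates these differences could not be tested.

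The log2 ratio of a gene in Cripto KO F/A against WT F/A was related to the length of its longest transcript (Spearman's rho −0.53 over 9653 genes with a mean normalized value of at least 200, which share the same libraries). In the WT transition rho was 0.35, in the Cripto KO transition 0.10 and in Cripto KO against WT in serum/LIF 0.24. After the running median over transcript length was subtracted, the log2 ratio in Cripto KO F/A against WT F/A was −0.95 for Cdh1, 1.42 for Cdh11, 2.01 for Snai2 and 1.20 for Twist1. The direction of all 9 genes was the same with and without this step in that comparison.

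The genes nearest in pattern over the 4 libraries were found by the root mean square distance between log2 values centred on each gene, among 9659 genes with a mean normalized value of at least 200. For Cdh1 they were Tbc1d2b (0.062), Zfc3h1 (0.071) and Plekha1 (0.086), for Cdh2 they were Samd4 (0.082), Kitl (0.11) and Fgfbp1 (0.12), and for Vim they were Dbn1 (0.0068), Timp3 (0.026) and Pkp2 (0.030). Distances were smallest for Vim, whose nearest gene encodes the actin-binding protein drebrin.

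Most other cadherins that passed the filter were higher in WT F/A than in WT serum/LIF. Of 20 listed, 9 passed the filter, 6 were at least 2-fold higher in WT F/A and 1 was lower (22.1% and 20.9% of all genes). A gene low in serum/LIF can pass the filter through its F/A counts alone, so the number higher is in part set by the filter. The same limit applies to the lists below. Cdh10 went from 5 to 206 raw counts (56.3-fold, interval 19.7 to 146) and Cdh13, a cadherin anchored to the membrane by a lipid, from 36 to 293 (9.98-fold, 6.53 to 13.5). In Cripto KO F/A against WT F/A 0 were higher and 1 was lower (4.59% and 5.69% of all genes), with a median log2 ratio of −0.39 against 0 for all genes.

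Of 13 catenins and junction partners 12 passed the filter, and 6 were higher and 1 lower in the WT transition (22.1% and 20.9% of all genes). Vcl, encoding the actin linker vinculin, rose 5.95-fold (interval 5.64 to 6.33) and Mllt4, encoding afadin, 4.85-fold (4.44 to 4.78). Between the genotypes in F/A 1 was higher and 0 lower (4.59% and 5.69% of all genes), with a median of −0.11. After the trend with transcript length was removed 4 were higher and 0 lower.

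Desmosome and tight junction genes, which serve stable epithelial contacts, were in part higher in F/A. Of the 16 of 19 that passed the filter, 7 were higher and 3 lower in the WT transition (22.1% and 20.9% of all genes). In the Cripto KO transition 6 were higher and 2 lower (19.9% and 19.4% of all genes). Dsp, encoding desmoplakin, rose from 777 to 14101 raw counts in WT (20.9-fold, interval 19.2 to 22.2) and Dsc2, a desmosomal cadherin, from 49 to 1522 (36.8-fold, 26.6 to 47.9). Tjp3 and Pkp3 were lower, at 0.335 (0.294 to 0.431) and 0.372 (0.307 to 0.484) of the serum/LIF level. In Cripto KO F/A against WT F/A none of the 16 passed a fold of 2, 13 lay below 0 and the median was −0.55. Over all genes 4.59% were higher and 5.69% lower there.

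Of the 9 Epcam partners, 3 were higher and 2 lower in the WT transition. Over all genes 22.1% were higher and 20.9% lower, so with 9 genes these counts lie near those shares. Cldn7, a claudin that binds Epcam, rose 4.01-fold (interval 3.75 to 4.71), while Cd9 fell to 0.408 of its level (0.404 to 0.463) and Tspan8 from 359 to 5 raw counts. After removal of the length trend 1 was lower in the WT transition. Between the genotypes in F/A 0 passed the limit, where 4.59% of all genes were higher and 5.69% lower, with a median of −0.30.

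Among 14 epithelial regulators 13 passed the filter, and 3 were higher and 5 lower in the WT transition. Over all genes 22.1% were higher and 20.9% lower, so the number higher lies near its share. In Cripto KO F/A against WT F/A 1 was higher and 3 were lower (4.59% and 5.69% of all genes), with a median of −0.63. Esrp1, an RNA-binding protein that sets epithelial splicing, rose 2.94-fold in the WT transition (interval 2.86 to 3.38) and was 2.29-fold lower in Cripto KO F/A than in WT F/A. Its relative Esrp2 was 2.30-fold lower there. In the WT transition Klf4, also listed as a naive ESC marker, fell from 7372 to 103 raw counts and Klf5 from 4351 to 744. The gene past the limit in the other direction was Cdx2, a regulator of trophectoderm and posterior tissue, with 104 raw counts in WT F/A and 674 in Cripto KO F/A (6.37-fold, 5.02 to 7.89).

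Of 15 other EMT transcription factors all passed the filter, and 11 were higher and 1 lower in the WT transition (22.1% and 20.9% of all genes). In the Cripto KO transition 12 were higher and 1 lower (19.9% and 19.4% of all genes). The lowest raw count of the list was 1 in WT serum/LIF and 28 in WT F/A. Factors low in serum/LIF can pass the filter through their F/A counts alone, so both numbers higher are in part set by the filter. Sox9 rose from 14 to 803 raw counts in WT (72.2-fold, interval 38.6 to 120) and Gsc, a factor of the anterior streak, from 7 to 227 (42.2-fold, 17.6 to 92.7), while Klf8 fell to 0.355 of its level (0.312 to 0.447). Between the genotypes in F/A 3 were higher and 2 lower (4.59% and 5.69% of all genes), with a median of −0.08. The mesenchyme factors Foxc2 and Prrx2 were 5.72-fold (4.72 to 6.75) and 4.52-fold (3.80 to 5.20) higher in Cripto KO F/A. Eomes and Gsc, factors of the streak, were 4.88-fold and 3.98-fold lower.

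**Figure D5:**
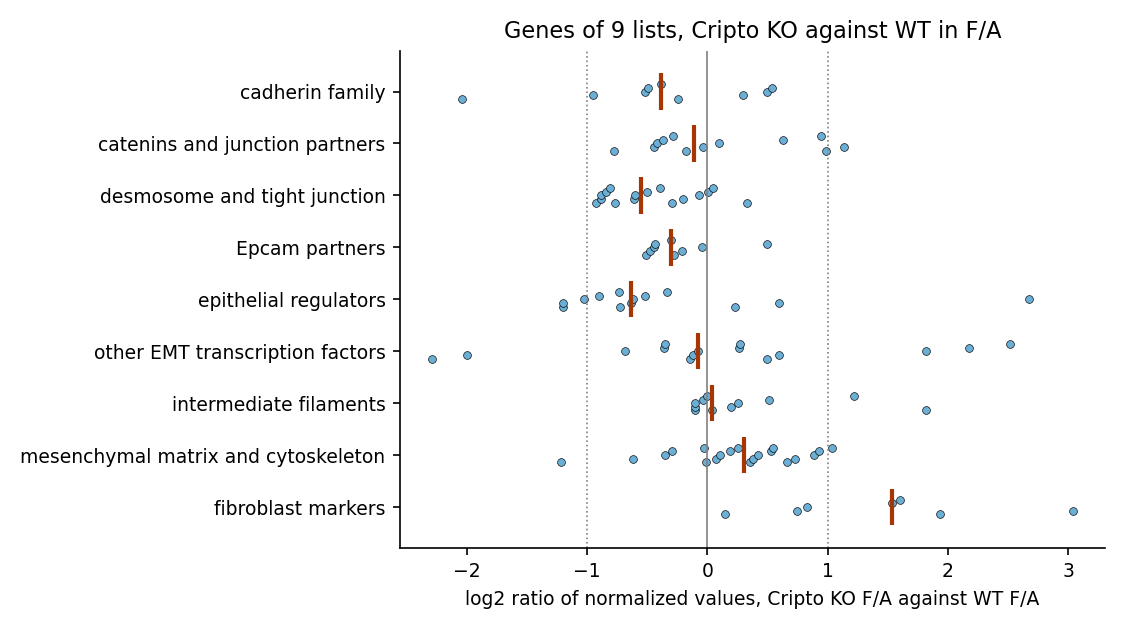
Log2 ratio of normalized values in Cripto KO F/A against WT F/A (horizontal axis) for the genes of 9 lists that passed the filter, with 1 point a gene, the median of each list as a vertical bar and dotted lines at a fold of 2. The medians of the desmosome and tight junction genes (−0.55) and of the epithelial regulators (−0.63) lie below 0, and that of the fibroblast markers (1.54) lies above the upper line.

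Of 11 other intermediate filament genes, 5 were higher and 2 lower in the WT transition (22.1% and 20.9% of all genes). The simple-epithelium keratins Krt8 and Krt18 rose 283-fold (interval 202 to 310) and 122-fold (95.3 to 133), while Prph fell to 0.188 of its level (0.149 to 0.254). Des, encoding the muscle filament desmin, was 3.52-fold higher in Cripto KO F/A than in WT F/A (3.11 to 4.02). It was 1 of 2 genes of the list at least 2-fold higher there, with 0 lower (1 higher by library totals), where 4.59% of all genes were higher and 5.69% lower. Vim therefore rose in F/A together with keratins.

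Of 20 genes of the mesenchymal matrix and cytoskeleton, 12 were higher and 3 lower in the WT transition (22.1% and 20.9% of all genes), with a median of 1.63. Tagln and Acta2, contractile proteins of smooth muscle, rose 97.1-fold (interval 76.1 to 113) and 62.6-fold (45.2 to 78.5), while S100a4 fell from 255 to 14 and Lox from 275 to 22 raw counts. In Cripto KO F/A against WT F/A 1 was higher, Acta2 at 2.05-fold (1.90 to 2.11), 1 was lower (4.59% and 5.69% of all genes), and the median was 0.30. After removal of the length trend 0 were higher, so the call of Acta2 was lost.

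In Cripto KO F/A against WT F/A, where Cdh11, Snai2 and Twist1 were higher, the marker lists of other cells went in different directions. The median log2 ratio was 1.54 for fibroblast, 0.52 for nascent mesoderm and 0.05 for trophoblast markers. It was −1.07 for definitive endoderm and −1.84 for primed EpiSC markers. Over all genes 4.59% were at least 2-fold higher and 5.69% lower. Of 8 fibroblast markers 7 passed the filter, and 4 of them were at least 2-fold higher in Cripto KO F/A than in WT F/A and 0 lower. Col3a1 was 8.20-fold higher (interval 6.32 to 10.8) and Pdgfrb 3.03-fold (2.59 to 3.51). Their summed RPKM was 40.8 in WT serum/LIF, 17.3 in WT F/A, 42.5 in Cripto KO serum/LIF and 45.3 in Cripto KO F/A. In the WT transition 1 of the 7 was higher and 2, Dcn and Thy1, were lower (22.1% and 20.9% of all genes). In the Cripto KO transition 4 were higher and 2 lower (19.9% and 19.4% of all genes), with a median of 1.82. Dcn and Thy1 had 328 and 466 raw counts in WT serum/LIF, 5 and 18 in WT F/A, and 18 and 28 in Cripto KO F/A. No marker of the list was at 0. Of 8 nascent mesoderm markers measured 2 were higher and 2 lower in Cripto KO F/A than in WT F/A. After removal of the length trend 4 were higher and 2 lower. Hand1 was 8.88-fold higher (7.31 to 10.02), at 196 raw counts in WT F/A and 1730 in Cripto KO F/A, the highest of the list there. The summed RPKM of the list was 2.11 in WT serum/LIF, 34.5 in WT F/A, 2.91 in Cripto KO serum/LIF and 98.8 in Cripto KO F/A. This sum is weighted to the most abundant genes and is not a level that the 8 markers share. Of 4 trophoblast markers measured 1 was higher (Cdx2) and 1 lower. Elf5 was at 0 in Cripto KO F/A and at 2 counts in WT F/A, both under the detection limit, so it gives no comparison. The paper names Hand1 and Msx2 with Cdx2 as trophoblast markers, whereas Hand1 is listed here under nascent mesoderm. In the WT transition Kdr went from 5 to 417 raw counts and Pdgfra from 89 to 812 among the mesoderm markers, and Krt7 from 71 to 769 and Gata3 from 2 to 238 among the trophoblast markers. The part of these cells in the levels of Cdh11, Snai2 and Twist1 was not tested.

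The remaining marker lists gave smaller numbers of genes. Over all genes 4.59% were higher and 5.69% lower in Cripto KO F/A than in WT F/A. Of 5 primed EpiSC markers measured 0 were higher and 3 lower in Cripto KO F/A than in WT F/A, with Cer1 5.68-fold lower, and T, the brachyury gene, had 13 raw counts in WT serum/LIF and 8748 in WT F/A. Of 4 definitive endoderm markers 0 were higher and 2 lower, with Sox17 2.60-fold lower, after rises in the WT transition of 90.5-fold for Sox17 and 371-fold for Foxa2. Of 5 primitive endoderm markers and of 2 neural markers measured none passed the limit between the genotypes in F/A (1 primitive endoderm marker was lower by library totals), and of 2 neural crest markers 1 was lower. In the WT transition Gata6 and Gata4 rose 32.8-fold and 14.7-fold, Pax6 rose 2.06-fold (under the limit without the length trend), and Tubb3 and Foxd3 fell to 0.197 and 0.0452 of their levels.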

How the data were processed

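Total RNA of 4 cultures was sequenced, 1 library each. The authors used TopHat2 2.0.13 for alignment to the mm9 genome (NCBIM37) and HTSeq 0.6.1p1 for counting on Ensembl genes, and deposited a raw count per gene and library. A second deposited table holds a signal, the counts after full quantile normalization of all genes, given for the genes then kept by a filter at 1 cpm. Recomputing that normalization gave the deposited values with a largest difference of 0. No column was without a sample. Symbols and lengths came from a mm9 annotation that named 37205 (98.9%) of the genes.

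Log2 ratios were taken from the normalized values, with 0 replaced by 0.5, and a gene was counted as higher or lower at a fold of at least 2. With 1 library a group there was no test. Intervals are 95% Clopper-Pearson intervals from raw counts, and the detection limit was 3 counts (6 in Cripto KO F/A). The library totals were 15230856 to 17315442, and an interval is wider the fewer counts a gene has, so wide for Snai2 and narrow for Vim. The members and the lists were chosen with earlier results of these data known. Named from each list, among genes with a fold of at least 2 whose higher library held 200 raw counts or more, were up to 2 highest and 2 lowest in the WT transition and in Cripto KO F/A against WT F/A, and the 3 genes nearest in pattern to Cdh1, Cdh2 and Vim. Others are marked, and some genes that the rule names are not reported here. A gene with several identifiers was represented by the identifier with most counts, and 5 listed symbols (Tfcp2l1, Tfap2c, Tfap2b, Sox1 and Map2) were not used here. Afadin and Foxf1 were matched by older symbols.

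The alternatives were library totals, TMM factors of edgeR 4.0.16, DESeq2 1.42.0 size factors (in R 4.3.3), a value of 5 added throughout, no filter, at least 50 raw counts, a fold of at least 3, halved counts of Cripto KO F/A before normalization, removal of the trend with transcript length over 501 genes, and a ratio per kilobase. Computations used Python 3.11.15, numpy 2.4.6, scipy 1.17.1, pandas 2.3.3 and matplotlib 3.10.9. The ratios, intervals and trend removal were tested on simulated data.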

Additional observations from a re-analysis of the deposited data

Results flagged for a closer look

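Some genes moved in opposite directions in the 2 genotypes or cultures, with each counting interval outside 1. Without replicates none of these differences was tested. Log2 ratios of Cripto KO to WT were related to transcript length (Spearman's rho −0.53 in F/A and 0.24 in serum/LIF). The values given here are not corrected for that trend. Epcam changed by 0.12 on the log2 scale from serum/LIF to F/A in WT cells and by −0.28 in Cripto KO cells, a difference of −0.40. The fibroblast marker Col3a1 changed by −0.68 in WT and by 1.97 in Cripto KO, a difference of 2.65. For Mllt4, the afadin gene, Cripto KO against WT was −0.78 in F/A and 0.52 in serum/LIF, a difference of −1.29. For Klf4 these values were 0.60 and −0.26, a difference of 0.86. For Gata6, a primitive endoderm factor, they were 0.72 and −1.42, a difference of 2.15, where serum/LIF held 6 raw counts in Cripto KO and 18 in WT. For Foxd3, a neural crest and naive pluripotency factor, they were −3.67 and 0.84, a difference of −4.51, and the F/A value rests on 2 raw counts in Cripto KO, under the detection limit of 6, against 30 in WT, so only a fold of at least 5.17 lower can be given.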

How the results depend on the processing

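No paired analysis was possible because each group holds 1 library and the labels carry no replicate numbers. Of 70 recomputed counts of genes, 63 were within 1.5 times the reported count, leaving aside the version without a filter, which repeats the reported values by construction. The exceptions were the gene lower in Cripto KO F/A than in WT F/A (Cdh1), where the count was 0 by library totals, TMM factors, DESeq2 size factors and removal of the length trend, and a fold of at least 3, which left 1 higher and 0 lower in that comparison and 0 higher in serum/LIF. The Cdh2 to Cdh1 ratio moved to 0.239 in WT F/A and 0.360 in Cripto KO F/A per kilobase of transcript. Of 216 recomputed log2 ratios of single genes 2 changed sign, both of Epcam in Cripto KO against WT in serum/LIF (0.0092 with TMM factors and 0.012 with DESeq2 size factors), and 4 crossed the 2-fold limit, all of Cdh1 in Cripto KO F/A against WT F/A. Removing the length trend moved Zeb2 in the WT transition from 3.63 to 2.91 and in Cripto KO F/A against WT F/A from 0.25 to 0.69. It left the number of genes with a difference of transitions of at least 1 within 1.5 times, but Twist1 fell to 0.81 and Snai1 (−1.22) and Cdh11 (1.03) passed. The counts of the gene lists were recomputed with library totals and without the length trend (chosen after seeing the data), and the report gives those of its counts that moved by over 1.5 times. Low counts limit Snai2 most.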
